A study of Mus musculus with 6 samples.

Results

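The comparison described here set knockdown of Pcyt2 against removal of ethanolamine (Etn) from the medium, 2 ways of inhibiting the same pathway. Mouse embryonic fibroblasts of the strain CBA/CaJ X C57BL/6J were sequenced on day 2 of reprogramming towards pluripotency. In the library called shPcyt2 the cells carried a short hairpin RNA (shRNA) against Pcyt2 in the reprogramming medium iCD1. In the library called Etn-deprived they carried the control hairpin against luciferase (shLuc) in iCD1 made without Etn. The 2 sides therefore differed both in the hairpin and in the medium. The reference was a pair of libraries labelled shLuc in complete iCD1, and 2 further libraries of the series (shEtnk1/2 and shPebp1) are given as values and used in alternative estimates of the spread. Each side of the comparison held 1 of the 6 libraries of the series. How the reprogramming factors were delivered, how many hairpins were used and whether the cells came from the same embryos is not stated by the labels.

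Ethanolamine enters phosphatidylethanolamine, a major membrane phospholipid, through the CDP-ethanolamine pathway. Ethanolamine kinases (Etnk1, Etnk2) phosphorylate it, Pcyt2 then makes CDP-ethanolamine in the step that usually limits the rate, and Cept1 or Ept1 joins this to diacylglycerol. Loss of Pcyt2 blocks the pathway inside the cell, whereas a medium without Etn leaves the enzymes in place and lets phosphoethanolamine arise only from what the cell already holds, such as the breakdown of sphingolipids. A separate route, through phosphatidylserine decarboxylase (Pisd), makes phosphatidylethanolamine in mitochondria. Fibroblasts that are being reprogrammed give up mesenchymal genes and take on epithelial ones early in the process.

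The deposited table gives RPKM (reads per kilobase of transcript at 1 common library size) for each gene and library, and genes were compared as log2(RPKM + 1). Of 18301 genes, 11818 were tested, those whose 6 libraries averaged 1 RPKM or more and that were not rows of short RNAs. Reads in genes numbered 19233255 in shPcyt2 and 18467583 in Etn-deprived, and the 6 libraries lay between 18467583 and 20020465. All 10 fibroblast markers were detected, with a summed level of 10820 RPKM in shPcyt2, 11040 in Etn-deprived and 9636 to 13160 over the 6 libraries. Summed markers of 7 other cell types were low in both, for example 49.6 and 52.1 RPKM for macrophages, 21.86 and 24.98 for endothelium and 1.805 and 1.536 for skeletal muscle. Of the 44 markers of those types 14 passed the filter and none of these was called. The adipocyte marker Fabp4 had the largest difference among them (4.43 RPKM in shPcyt2, 1.34 in Etn-deprived), with 0.310 and 2.93 RPKM in the shLuc pair and an SE of 1.45 on the log2 scale. Pebp1 stood at 250.4 RPKM in shLuc replicate 1 and 100.7 in the library labelled shLuc replicate 2, which is the level of the shPebp1 library (99.6), so that 1 library did not match its label on this gene. The difference between shPcyt2 and Etn-deprived does not use either shLuc library, but its p-values and its direction relative to control do.

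More genes were called higher in shPcyt2 than lower, and the higher ones had shorter transcripts and a higher GC content than all genes tested. Their medians were 1116 nt and 55.2%, against 2931 nt and 50.3%. Limma called 588 genes higher in shPcyt2, which is 4.98% of the genes tested, and 213 lower, which is 1.8% (adjusted p under 0.05, Benjamini-Hochberg over all 11818 genes). With 1 library a side, limma had to take the spread from the pair of shLuc libraries (1 residual degree of freedom), so each p-value assumes that both libraries vary as shLuc does. The share of higher calls depended on the processing: there were 366 higher and 69 lower calls with median-of-ratios factors, 224 and 58 after quantile normalization, and 376 (3.18%) and 367 (3.11%) when limma-voom was run on reads recovered from the values. With shPebp1 added to the shLuc pair as a source of the spread there were 233 (1.97%) and 18 (0.152%). When the 4 other libraries supplied the spread, limma called 0 genes, with 1292 at an unadjusted p under 0.05. A rule of size without a test found 21 genes (0.178%) at least 1 log2 unit higher in shPcyt2 and 2 (0.0169%) at least 1 lower, against 8 (0.0677%) and 3 (0.0254%) between the shLuc libraries.

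The promoters of the 3 genes with the largest differences that remained called after both trends below were removed and that have an entry in the promoter table are shown, as the loci with the largest values in that fit and a known promoter. Each runs from 250 bases before to 50 after the RefSeq start (GRCm38.p6, 5′ to 3′ on the gene's strand), at chr3:37724311-37724610, chr10:128493837-128494136 and chr7:141475104-141475403. All lie on the minus strand. Capitals mark a GC box (GGGCGG) or a CCAAT box (CCAAT), on either strand.
Gm5148: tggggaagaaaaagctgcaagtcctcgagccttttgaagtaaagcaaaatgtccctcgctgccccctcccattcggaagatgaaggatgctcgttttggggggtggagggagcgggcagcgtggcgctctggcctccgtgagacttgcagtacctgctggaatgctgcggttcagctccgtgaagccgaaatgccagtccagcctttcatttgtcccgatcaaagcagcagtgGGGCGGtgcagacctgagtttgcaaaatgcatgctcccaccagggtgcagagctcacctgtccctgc
Myl6: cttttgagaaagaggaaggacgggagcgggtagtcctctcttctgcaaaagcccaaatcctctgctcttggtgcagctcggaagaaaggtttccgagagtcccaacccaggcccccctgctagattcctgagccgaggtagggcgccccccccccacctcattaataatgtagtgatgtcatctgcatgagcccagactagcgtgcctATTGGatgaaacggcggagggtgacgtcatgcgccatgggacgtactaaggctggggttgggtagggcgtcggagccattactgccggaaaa
Polr2l: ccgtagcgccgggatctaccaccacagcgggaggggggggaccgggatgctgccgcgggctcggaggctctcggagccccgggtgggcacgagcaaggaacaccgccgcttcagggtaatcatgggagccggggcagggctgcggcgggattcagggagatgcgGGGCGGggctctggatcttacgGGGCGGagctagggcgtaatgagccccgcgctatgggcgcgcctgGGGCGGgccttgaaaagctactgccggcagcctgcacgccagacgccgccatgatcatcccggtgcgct
The GC box occurred once in Gm5148, 3 times in Polr2l and not in Myl6, whose window holds the CCAAT box reversed. Of the 8963 tested genes with a promoter in the table, 67.2% held a GC box and 39.2% a CCAAT box. Among the 444 genes called higher the shares were 63.7% and 39.9%, and among the 156 called lower 66.7% and 38.5%. The letters CCGGAAG, the core bound by ETS factors, stood in 19.0% of all windows, 111 of the 444 windows called higher, 27 of the 156 called lower (17.3%) and 22 of 56 windows of cytosolic ribosomal protein genes (39.3%). In complex I genes, the list with the largest median difference, 4 of 32 windows (12.5%) held it.

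Pcyt2 itself was not called different between the labelled knockdown and the Etn-deprived library, which carried the control hairpin. It stood at 42.0 and 40.05 RPKM in the shLuc pair, 29.9 (95% Poisson interval 28.1 to 31.8) in shPcyt2 and 33.5 (31.6 to 35.5) in Etn-deprived. The shPcyt2 level was 72.9% of the shLuc mean and the Etn-deprived level 81.5%. Limma called Pcyt2 below shLuc in both libraries. Both libraries lay below both shLuc libraries, and shPcyt2 minus Etn-deprived was -0.16 ± 0.10 (log2, SE, adjusted p = 0.376, limma). The knockdown was thus the lowest of the 6 libraries for its own target, but its level was not shown to differ from that in medium without Etn.

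The rest of the pathway showed no called difference. Etnk1 was 19.8 RPKM in shPcyt2, 23.7 in Etn-deprived and 21.0 and 21.4 in shLuc (difference -0.24 ± 0.11, adjusted p = 0.198, limma). Etnk2 was below the filter, with 27 reads in shPcyt2 and 22 in Etn-deprived. Pebp1, the other target of the series, was 263.4 RPKM in shPcyt2 and 210.5 in Etn-deprived, with an SE of 1.20 on the log2 scale because the shLuc pair disagrees on it. None of the 4 tested enzymes of the pathway (Etnk1, Pcyt2, Cept1 and Ept1) lay above 0, and with Pebp1 the 5 listed genes had a median of -0.04, against -0.01 for all genes. Among 10 genes that make phosphatidylserine and phosphatidylcholine, Chpt1, a cholinephosphotransferase of the parallel choline branch, was the single call: 5.37 RPKM in shPcyt2, 8.18 in Etn-deprived and 5.80 and 6.05 in shLuc (-0.53 ± 0.15, adjusted p = 0.0287, limma). The Chpt1 transcript has a GC content of 34.4%. With the length and GC trends described below removed, Chpt1 differed by -0.23 and was no longer called. Pisd was 0.17 higher in shPcyt2 and was not called. None of 14 tested enzymes that release ethanolamine or act on lysophospholipids was called, and the largest difference was that of Pla2g15, a lysosomal phospholipase (10.6 RPKM in shPcyt2, 7.67 in Etn-deprived, adjusted p = 0.0537, limma).

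Gm5148 had the largest difference upwards among the genes tested. It lies on the minus strand at chr3:37714190-37724360 (mm10, positions from the deposited table) and stood at 24.5 and 24.4 RPKM in shLuc, 44.8 in shPcyt2 and 8.98 in Etn-deprived, with 16.9 in shEtnk1/2 and 17.1 in shPebp1. The shPcyt2 library was the highest of the 6 and the Etn-deprived library the lowest, a ratio of 4.99 (95% interval 4.29 to 5.83 from 1055 and 203 reads, counting error only). The log2 difference was 2.20 ± 0.11 (SE, adjusted p = 6.97e-13, limma). The authors' deposited table matches its sequence to 40S ribosomal protein S23, so reads could be shared with Rps23, which was 649.3 RPKM in shPcyt2 and 521.0 in Etn-deprived. The value of Gm5148 is uncertain for that reason, and so are those of Gm12070, which the deposited table matches to glyceraldehyde-3-phosphate dehydrogenase (3.29 against 0.719 RPKM), and of other genes with near-identical copies.

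Abundant cytoskeletal and secreted products were also among the 15 largest differences upwards. Tmsb10, which encodes the actin-sequestering thymosin beta 10, was 355.6 and 409.8 RPKM in shLuc, 446.3 in shPcyt2 and 156.8 in Etn-deprived. Myl6, the non-muscle myosin essential light chain, was 736.5 and 705.9 in shLuc, 810.9 in shPcyt2 and 317.1 in Etn-deprived. Lgals1, the secreted lectin galectin 1, was 1095 and 1090 in shLuc, 1302 in shPcyt2 and 612.5 in Etn-deprived. In all 3 the Etn-deprived library was the lowest of the 6 and shPcyt2 the highest, at 41.0%, 44.0% and 56.1% of the shLuc mean for Etn-deprived and 116.6%, 112.4% and 119.1% for shPcyt2. The log2 differences were 1.503 ± 0.09, 1.35 ± 0.07 and 1.09 ± 0.07 (SE), with adjusted p-values of 3.79e-07, 1.8e-12 and 5.5e-11 by limma. Myl6 was also low in shPebp1 (459.3 RPKM), and it was not called when that library was added to the spread (adjusted p = 0.277, limma, with 3.22e-49 to 0.437 over all alternatives).

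Subunits and assembly factors of RNA polymerase II and the respiratory chain were also among the genes called higher. Polr2l and Polr2j, subunits of RNA polymerase II, were 13.2 and 39.5 RPKM in shPcyt2 against 5.21 and 19.4 in Etn-deprived (differences 1.20 and 0.98). Ndufa2, an accessory subunit of respiratory complex I, was 49.4 and 45.9 RPKM in shLuc, 50.2 in shPcyt2 and 23.1 in Etn-deprived (1.09 ± 0.10, adjusted p = 5.34e-08, limma). Ndufa2 in shPcyt2 thus stayed near control while the Etn-deprived library was the lowest of the 6. Uqcc2, an assembly factor of complex III, was 29.9 and 29.2 in shLuc, 41.7 in shPcyt2 and 19.3 in Etn-deprived. Here the 2 libraries stood on opposite sides of shLuc, and limma called each of them apart from it (adjusted p = 0.0340 and 1.03e-04). In shEtnk1/2, Polr2l (7.12 RPKM), Polr2j (28.2) and Ndufa2 (33.4) were also below both shLuc libraries, but Uqcc2 (29.3) was within their range. The other largest differences upwards belonged to Naa38, Gadd45gip1, Ngfrap1, Tceal5, Lypd2, Rpl39l and Gm3219, at 1.03 to 1.35 on the log2 scale.

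**Figure D1:**
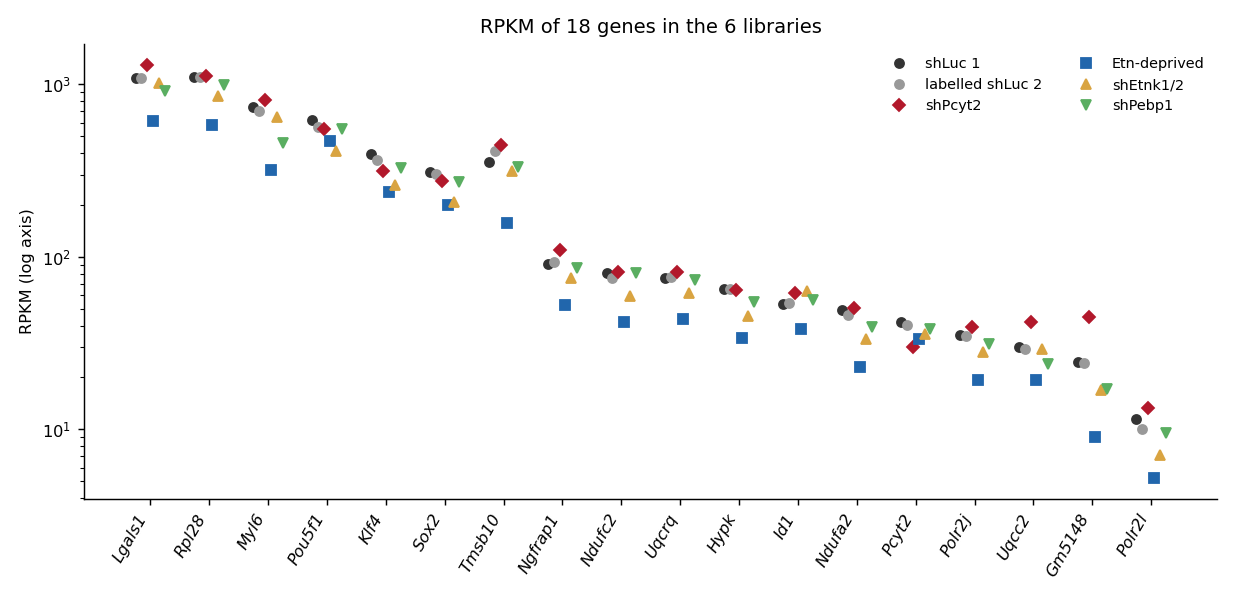
RPKM (log axis) of 18 genes in the 6 libraries, 1 point a library and no error bars. For Lgals1, Rpl28, Myl6, Tmsb10, Ndufa2 and Gm5148 the Etn-deprived square is the lowest of the 6 points, while Pcyt2 is lowest in shPcyt2.

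In the other direction the largest difference was that of DQ267100 (-3.22), a small RNA with a length of 71 nt that the name rule for short RNAs does not catch, with 0 reads in shPcyt2, 11 in Etn-deprived and 4 in each shLuc library. The upper 95% Poisson bound of DQ267100 in shPcyt2 was 2.68 RPKM, against 8.33 RPKM in Etn-deprived and 2.79 and 2.86 in shLuc. The next 14 were Ropn1l, Zfp81, Usp18, Hist1h3d, 2700038G22Rik, Fam120aos, Mipol1, 1700019D03Rik, Samd12, Glmn, Lbp, Parpbp, Slc25a32 and 1600020E01Rik, between -0.97 and -0.65. Zfp81, a zinc finger protein, was 3.51 RPKM in shPcyt2, 6.78 in Etn-deprived and 4.09 and 4.40 in shLuc. Slc25a32, a mitochondrial folate carrier, was 5.82 in shPcyt2, 9.75 in Etn-deprived and 6.58 and 6.52 in shLuc. In both genes the Etn-deprived library was the highest of the 6 and shPcyt2 the lowest.

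Among the genes called between the 2 libraries, Etn-deprived was more often the library further from shLuc. Of the 588 genes higher in shPcyt2, 418 (71.1%) had shPcyt2 above both shLuc libraries and Etn-deprived below both, 118 had shPcyt2 within the shLuc range and Etn-deprived below it, and 47 had both below. Etn-deprived was further from the shLuc mean in 537 of them (91.3%), against 63.4% of all genes, and in 521 when shLuc replicate 1 alone was the reference. Of the 213 genes lower in shPcyt2, 172 (80.8%) had shPcyt2 below and Etn-deprived above the shLuc range. Etn-deprived was further away in 166 of them (77.9%). All these genes were picked for a large gap between the 2 libraries, which favours values on opposite sides of shLuc. The share of such positions over all genes was not taken, so the positions alone do not give a direction. Against shLuc itself limma called 664 genes lower (5.62%) and 172 higher (1.46%) in Etn-deprived, but 2 lower (0.0169%) and 3 higher (0.0254%) in shPcyt2. Both comparisons use the same shLuc pair. Limma called 416 of the 588 apart from shLuc in Etn-deprived and 2 in shPcyt2, and 172 in neither.

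The difference followed transcript length and GC content. Transcript length was inferred from the deposited values, and GC content was that of the nearest GENCODE transcript, known for 10698 of the genes (90.5%). Genes called higher in shPcyt2 had a median length of 1116 nt and a GC content of 55.2%, those called lower 3564 nt and 42.0%, and all tested genes 2931 nt and 50.3%. The median difference was 0.33 for the 108 transcripts up to 500 nt, of which 43.5% were called higher, and fell in each longer class to -0.10 for the 2244 transcripts over 5000 nt. By GC content it ran from -0.24 below 40% to 0.14 above 60%. Among transcripts up to 1000 nt the GC trend was still present, from a median of 0.06 with a GC content up to 45% to 0.33 above 55%.

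Across genes, Spearman's rho of the difference was -0.37 with length and 0.51 with GC content, and rho between length and GC content was -0.24. Genes of 1 library share that library's depth and preparation, so these values describe the 2 libraries and carry no p. The GC trend belonged to the Etn-deprived library: its difference from shLuc had rho values of 0.26 with length and -0.51 with GC, against -0.25 and 0.10 for shPcyt2 minus shLuc and 0.04 and -0.09 between the shLuc libraries. For transcripts up to 500 nt the medians against shLuc were -0.28 in Etn-deprived and 0.05 in shPcyt2. Whether the trend arose in the cells or in the preparation of 1 library was not tested and, with 1 library a side, the 2 cannot be told apart.

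**Figure D2:**
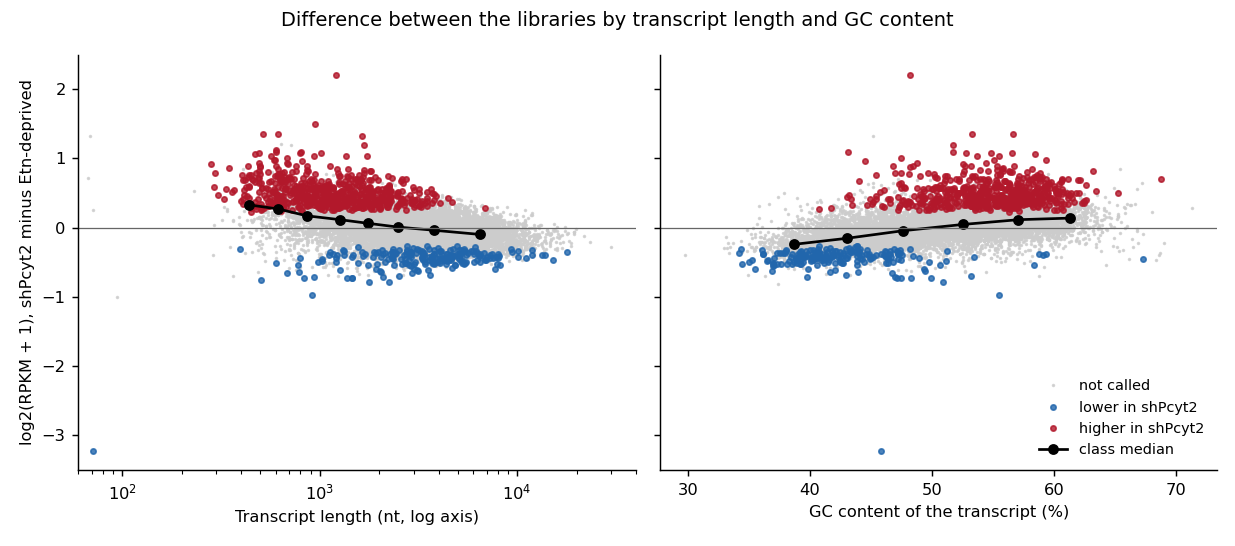
Difference in log2(RPKM + 1), shPcyt2 minus Etn-deprived, of each gene against transcript length (left, log axis) and GC content (right); red and blue points are genes called higher and lower, black points the medians of classes. The medians run from 0.33 in the shortest class to -0.10 in the longest, and from -0.24 at the lowest GC content to 0.14 at the highest.

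With a smooth trend on length taken out of every library, limma called 120 genes higher (1.02%) and 67 lower (0.567%). With length and GC trends both taken out, it called 14 higher (0.131%) and 3 lower (0.028%) of 10698. The genes called in all 3 fits numbered 17 and are named here after their values were seen. The 14 higher ones were Gm5148, Myl6, Polr2l, Ndufa2, Lgals1, Uqcc2, Ngfrap1, Ndufaf2, Polr2j, Ndufc2, Rpl28, Uqcrq, Hypk and Rpl15, and the 3 lower ones DQ267100, Ubb and Rpl39. Tmsb10 has no GC value, since no transcript of its symbol came within 25% of the inferred length, and was not part of the last fit. Ndufa2, Ndufc2, Ndufaf2, Uqcrq and Uqcc2 are subunits or assembly factors of the respiratory chain, and Polr2l and Polr2j belong to RNA polymerase II.

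Ubb, a polyubiquitin gene, was 70.1 and 68.8 RPKM in shLuc, 55.7 in shPcyt2 and 72.9 in Etn-deprived (-0.38 ± 0.09, adjusted p = 0.00945, limma). Here shPcyt2 was the library further from shLuc. Ubb was lower still in shPebp1, at 24.8 RPKM, and it was not called when that library was added to the spread. Rpl39, a short ribosomal protein gene, was 298.9 and 310.0 in shLuc, 270.2 in shPcyt2 and 335.8 in Etn-deprived, and was the single call downwards among the cytosolic ribosomal proteins.

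Of 83 tested genes of the respiratory chain and ATP synthase, 42 were called higher in shPcyt2 and none lower, and 4 were called higher once length and GC trends were removed. Of 36 complex I genes (the NADH dehydrogenase that feeds electrons into the chain), 21 were called higher and none lower, where 4.98% of all genes were called higher and 1.8% lower. Of the 36, 34 lay above 0, against 5769 (48.8%) of all 11818 genes. Their median difference was 0.37, made up of a median of 0.07 for shPcyt2 minus shLuc and -0.30 for Etn-deprived minus shLuc. Etn-deprived was the lowest of the 6 libraries in 21 of them, against 2564 (21.7%) of all genes. Ndufc2 was 80.2 and 75.1 RPKM in shLuc, 81.4 in shPcyt2 and 41.9 in Etn-deprived, and Ndufs6 was 24.5 and 19.6 in shLuc, 27.4 in shPcyt2 and 12.9 in Etn-deprived. In both genes shPcyt2 was the highest of the 6 libraries and Etn-deprived the lowest. The shEtnk1/2 library was also below both shLuc libraries, at 59.3 RPKM for Ndufc2 and 16.8 for Ndufs6.

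Complexes II to IV had 13 of 30 genes called higher and none lower (median 0.20), and ATP synthase, which makes ATP from the proton gradient, 8 of 17 (median 0.21), against 4.98% of all genes. Uqcrq, a small subunit of complex III, was 75.5 and 76.2 RPKM in shLuc, 81.9 in shPcyt2 and 43.6 in Etn-deprived. Cox5b, a subunit of cytochrome c oxidase, was 127.2 and 117.1 in shLuc, 142.5 in shPcyt2 and 89.3 in Etn-deprived. Atp5g1, part of the membrane ring of ATP synthase, was 83.8 and 85.6 in shLuc, 90.6 in shPcyt2 and 58.4 in Etn-deprived. In shEtnk1/2, Uqcrq (61.5 RPKM), Cox5b (93.8) and Atp5g1 (76.6) were also below both shLuc libraries. These genes are short, with median lengths of 710, 685.5 and 772 nt for complex I, complexes II to IV and ATP synthase. After length and GC trends were removed their medians were 0.17, 0.06 and 0.09, and 2, 2 and 0 genes were called higher, where 0.131% of all genes were.

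Ribosomal protein genes followed the same order of libraries. Of 76 cytosolic ribosomal protein genes 42 were called higher and 1 lower, against 4.98% and 1.8% of all genes, with a median of 0.26. Etn-deprived was the lowest library in 52 of them, against 21.7% of all genes. Rpl28, of the large subunit, was 1104 and 1099 RPKM in shLuc, 1118 in shPcyt2 and 585.2 in Etn-deprived (0.93 ± 0.07, adjusted p = 1.1e-09, limma). In shEtnk1/2 Rpl28 was 859.7 RPKM, also below both shLuc libraries. Rplp1, Rpl35, Rpl11, Rps16 and Rpl38 differed by 0.55 to 0.70. The median length was 717.5 nt, and with length removed the median difference was 0.04, with length and GC removed 0.03. Many of these genes have processed copies in the genome, and the authors' way of assigning shared reads is not stated in the labels.

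Mitochondrial ribosomal proteins had 14 of 76 genes called higher and none lower (median 0.17), led by Mrpl14, with 34.7 RPKM in shPcyt2 and 17.1 in Etn-deprived. Of 24 proteins of small nuclear ribonucleoproteins, which splice pre-mRNA, 5 were called higher (median 0.18), among them Snrpd2 (0.72). Against the 4.98% of all genes called higher and 1.8% called lower, RNA polymerase subunits had 6 of 28 higher, proteasome subunits, near that share, 3 of 37 higher and 1 lower, and small cytoskeletal genes 10 of 28 higher, among them Myl12a (0.59), S100a6 (0.50) and Pfn1 (0.42). Tmsb4x, the abundant relative of Tmsb10, was 1421 RPKM in shPcyt2 and 1416 in Etn-deprived. Translation factors, whose median length of 2354 nt is closer to that of all genes, had 5 of 58 called higher and 1 lower and a median of -0.01. With length and GC removed, the medians of mitochondrial ribosomal, small nuclear ribonucleoprotein and small cytoskeletal genes were 0.07, 0.10 and 0.04.

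**Figure D3:**
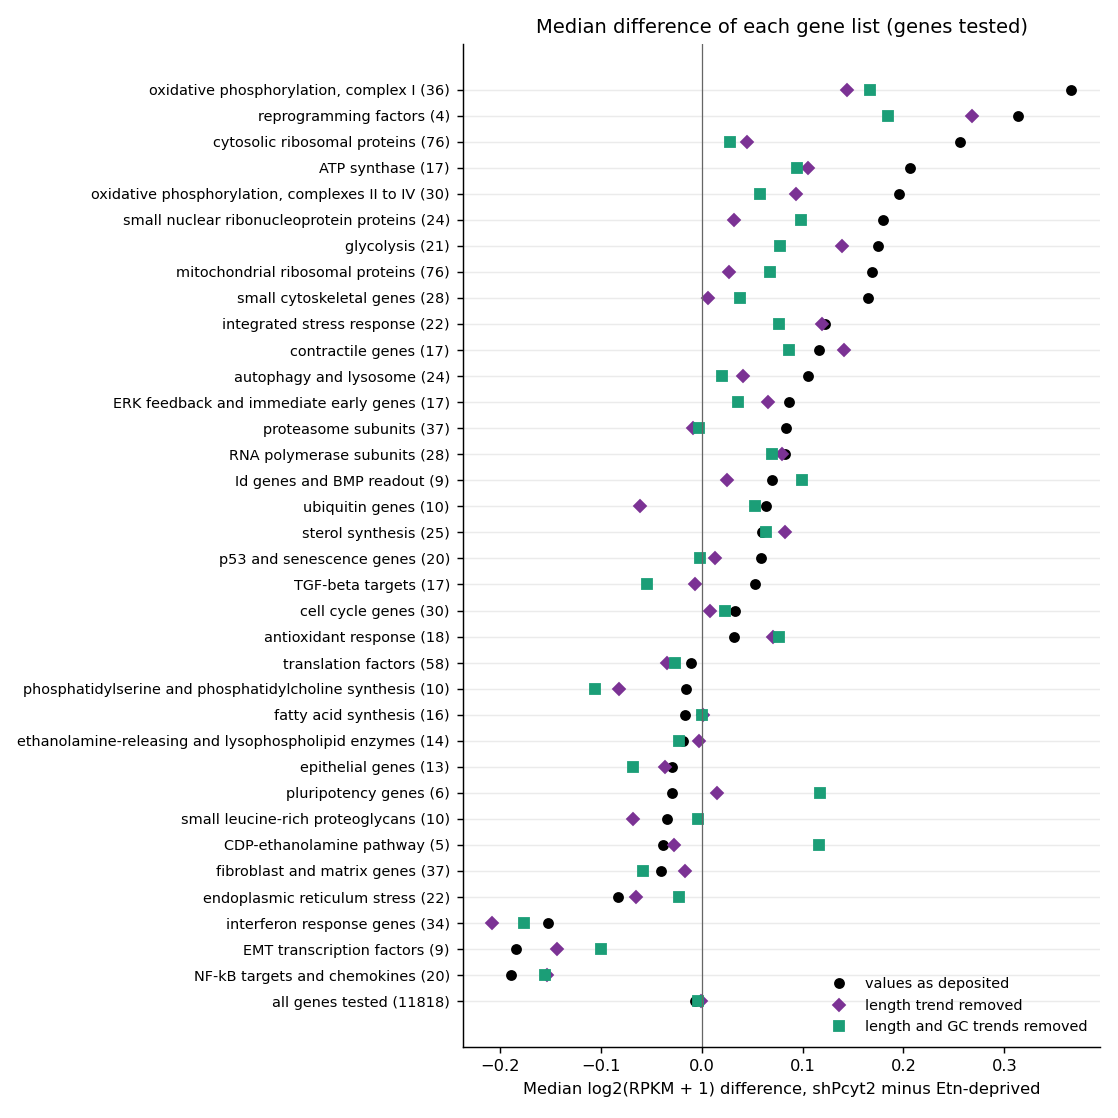
Median difference in log2(RPKM + 1), shPcyt2 minus Etn-deprived, of each gene list (tested genes in brackets), for the values as deposited, with the length trend removed, and with length and GC trends removed. Cytosolic ribosomal proteins move from 0.26 to 0.03, complex I from 0.37 to 0.17 and interferon response genes from -0.15 to -0.18.

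Of the 4 reprogramming factors, Sox2 and Klf4 were called higher in shPcyt2 than in Etn-deprived. Sox2 was 310.7 and 302.8 RPKM in shLuc, 276.8 in shPcyt2 and 200.3 in Etn-deprived (0.47 ± 0.08, adjusted p = 2.23e-04, limma). Klf4 was 394.2 and 362.5 in shLuc, 313.6 in shPcyt2 and 238.0 in Etn-deprived (0.40 ± 0.08, adjusted p = 0.00257, limma). Pou5f1, at 619.8 and 569.1 in shLuc, 554.1 in shPcyt2 and 472.4 in Etn-deprived, was not called, and neither was Myc, at 8.62 and 7.99 in shLuc, 7.72 and 7.31. In each of these 4 genes both values lay below both shLuc values, with that of shPcyt2 in between. The shEtnk1/2 library was also below both, at 208.5 RPKM for Sox2, 262.0 for Klf4, 412.4 for Pou5f1 and 7.64 for Myc. Its Pou5f1 value was the lowest of the 6 libraries. Against shLuc itself limma called Sox2, Klf4 and Pou5f1 in Etn-deprived and none of the 4 in shPcyt2. The median difference was 0.31, and with length and GC removed the median was 0.18 and none was called. Transcripts of the delivered factors and of the cells' own genes cannot be told apart in these values.

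Of 25 other pluripotency genes, 19 were in the deposited table and 6 passed the filter, and none of these was called. Of 13 epithelial genes none was called and the median was -0.03. Cdh1, which encodes E-cadherin, was 9.34 RPKM in shPcyt2, 10.04 in Etn-deprived and 10.9 and 9.35 in shLuc, and Epcam was 0.977 and 1.02 against 1.11 and 1.92. Neither gene separated the 2 libraries. Of 9 transcription factors that drive the mesenchymal state 1 lay above 0, with a median of -0.18, but none was called: Zeb2 was 14.0 RPKM in shPcyt2 and 17.98 in Etn-deprived (adjusted p = 0.0805, limma) and Snai2 18.1 and 22.1. With length and GC removed their median was -0.10.

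Mesenchymal and matrix genes were split. Of 37, Thy1, a surface glycoprotein of fibroblasts, and Eln, which encodes elastin, were called higher in shPcyt2 (0.41 each), and Lox, the enzyme that crosslinks collagen and elastin, was called lower (-0.26). Thy1 was 61.9 and 55.7 RPKM in shLuc, 69.3 in shPcyt2 and 52.0 in Etn-deprived, whereas Lox was 131.6 and 137.7 in shLuc, 143.8 in shPcyt2 and 173.1 in Etn-deprived. Lox was thus above both shLuc libraries on both sides. Aspn, which encodes the proteoglycan asporin, was the single call among 10 small leucine-rich proteoglycans (87.6 RPKM in shPcyt2, 108.7 in Etn-deprived). Over all genes 4.98% were called higher and 1.8% lower. With length and GC removed, Thy1, Eln, Lox and Aspn differed by 0.26, 0.31, -0.11 and -0.05, and no gene of either list was called. No contractile gene (17 tested) and no TGF-beta target (17 tested) was called, and Acta2, Fn1 and Postn differed by 0.13, -0.11 and -0.17.

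Id1 and Id3, targets of bone morphogenetic proteins that hold back basic helix-loop-helix factors, were higher in shPcyt2, the calls among 9 genes of that readout. Id1 was 53.5 and 54.0 RPKM in shLuc, 62.0 in shPcyt2 and 38.0 in Etn-deprived (0.69 ± 0.09, adjusted p = 1.39e-05, limma), and Id3 was 88.0 and 83.8 in shLuc, 110.8 in shPcyt2 and 80.5 in Etn-deprived. Of the 2 libraries, Etn-deprived was further from shLuc for Id1 and shPcyt2 for Id3. Id3 was higher still in shEtnk1/2, at 116.5 RPKM. Of 17 ERK feedback and immediate early genes Etv4, an ETS factor induced by ERK signalling, was the single call (6.89 RPKM in shPcyt2, 3.80 in Etn-deprived). Over all genes 4.98% were called higher and 1.8% lower. With length and GC removed, Id1, Id3 and Etv4 differed by 0.46, 0.21 and 0.58, and no gene of either list was called.

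Interferon and NF-kB targets had negative medians. Of 34 interferon response genes 2 were called lower and none higher, against 1.8% and 4.98% of all genes. Of the 34, 23 lay below 0, against 6049 of all 11818 genes, with a median of -0.15 (0.05 for shPcyt2 minus shLuc, 0.22 for Etn-deprived minus shLuc). Usp18, which removes ISG15 from proteins, was 1.57 and 2.27 RPKM in shLuc, 1.20 in shPcyt2 and 2.76 in Etn-deprived, and Oasl2, of the oligoadenylate synthetase family, was 4.02 and 3.11, 3.65 and 6.19. Cxcl10 was 0.316 and 0.370 RPKM in shLuc, 0.892 in shPcyt2 and 1.17 in Etn-deprived, from 7 to 44 reads a library. The last 2 values lay above shLuc and below those in shEtnk1/2 (2.02) and shPebp1 (1.56). The shLuc libraries themselves had a median difference of -0.09 over this list.

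Of 20 NF-kB targets and chemokines Ccl7 and Ly96 were called lower and none higher, against 1.8% and 4.98% of all genes. Ccl7, which attracts monocytes, was 42.8 and 38.2 RPKM in shLuc, 43.8 in shPcyt2 and 59.7 in Etn-deprived, and Ly96, the partner of the endotoxin receptor, was 5.02 and 5.98, 7.45 and 11.1. The list's median was -0.19, and the shLuc libraries themselves had a median difference of -0.07 over it. Of the 20 genes 15 lay below 0, among them Nfkb1 and Relb without a call, against 6049 of all 11818 genes. With length and GC removed the interferon and NF-kB medians were -0.18 and -0.16, and no gene of either list was called.

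Among metabolic and stress lists, calls are set against the 4.98% higher and 1.8% lower over all genes. The sterol synthesis, glycolysis and antioxidant lists had a larger share of higher calls than all genes. The integrated stress response and endoplasmic reticulum stress lists were near it. Sterol synthesis had 4 of 25 genes called higher (Pmvk, Ebp, Tm7sf2 and Mvk) and Idi1 called lower, and among 16 fatty acid synthesis genes Elovl6, which lengthens fatty acids, was called lower. Glycolysis had 19 of 21 genes above 0, a median of 0.17 (0.08 with length and GC removed) and 4 called higher (Slc16a3, Aldoa, Gapdh and Pgk1), with differences of 0.67 for Slc16a3, a lactate exporter, and 0.27 to 0.28 for the others. The antioxidant list had 3 of 18 called higher (Gsta4, Sod1 and Txn1). The integrated stress response had 17 of 22 genes above 0 and a median of 0.12. Etn-deprived was the lowest library in 11 of the 22, and Atf5 was the single call (0.37). Over all genes 48.8% lay above 0, and Etn-deprived was the lowest library in 21.7%. Among 22 of endoplasmic reticulum stress Sdf2l1 was higher and Hsp90b1 lower. Lamp2, a lysosomal membrane protein, was the single call of 24 autophagy and lysosome genes (123.6 RPKM in shPcyt2, 154.6 in Etn-deprived). No gene of these lists was called once length and GC trends were removed.

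Calls among proliferation genes were few and went in both directions. Of 30 cell cycle genes Mki67 and Top2a were called lower and Plk1 higher, at differences of -0.33, -0.32 and 0.30. Of 20 p53 and senescence genes Bax and Cdkn1a were called higher and Ccng1 lower. Over all genes 4.98% were called higher and 1.8% lower. With length and GC removed no gene of these 2 lists was called. Among 10 ubiquitin genes Urm1 was called higher and Ubb lower. The transcripts of Mki67, Top2a and Ccng1, called lower, measure 10075, 5217 and 3487 nt. Those of Plk1, Urm1, Cdkn1a and Bax, called higher, measure 2203, 2143, 2026 and 869 nt. This is the order of the trend with length, but Ubb, called lower, measures 1165 nt. A link between these calls and length was not tested.

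**Figure D4:**
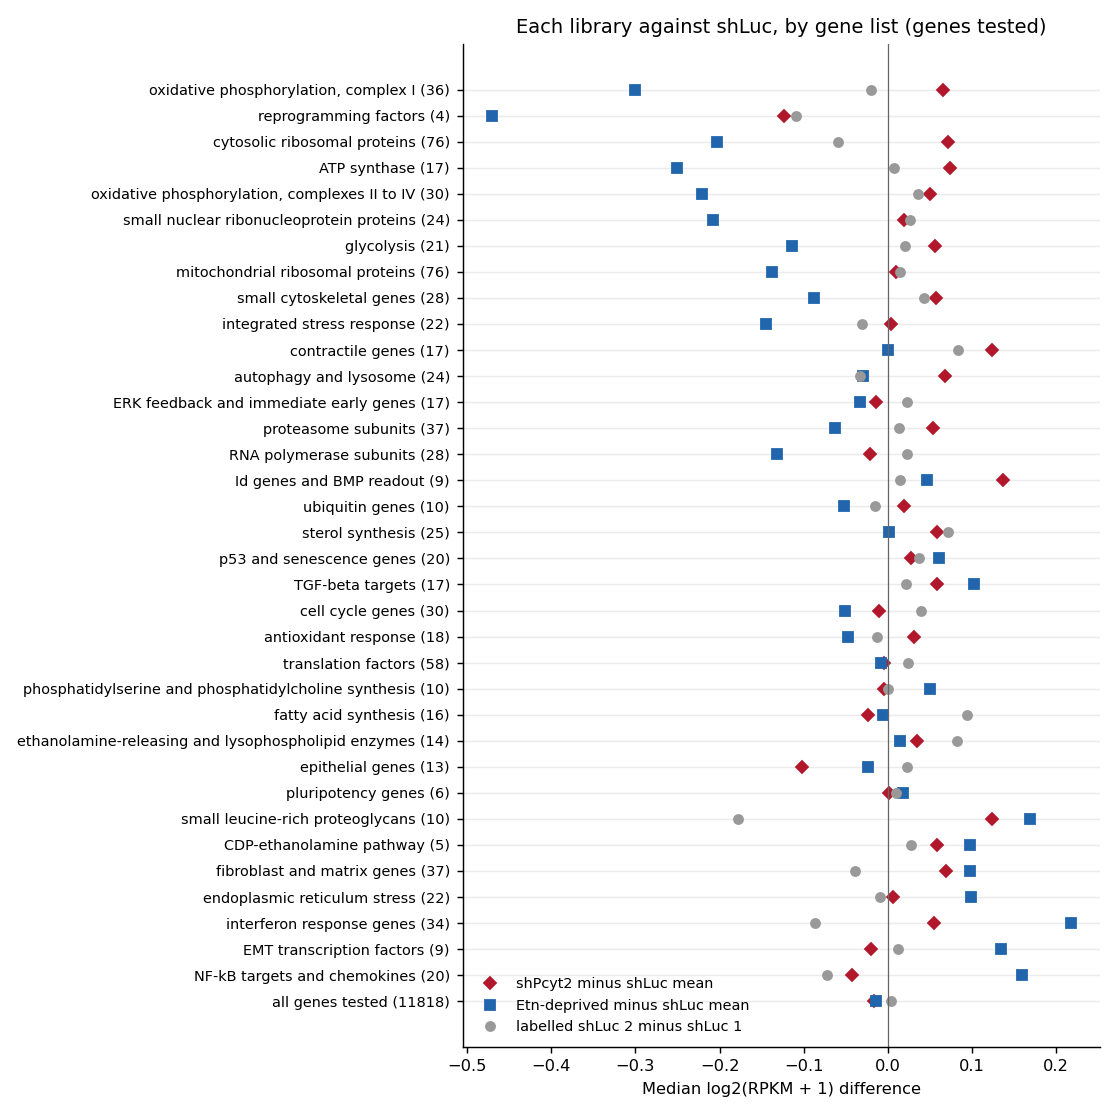
Median log2(RPKM + 1) difference of each gene list from the shLuc mean, for shPcyt2 and Etn-deprived, with the difference between the shLuc libraries as background. For complex I the medians are 0.07 and -0.30 and for interferon response genes 0.05 and 0.22, with -0.02 and -0.09 between the shLuc libraries.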

How the data were processed

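The authors deposited 1 RPKM value per gene and library. Polyadenylated RNA was sequenced, per the labels' protocols, and the submitters' processing notes list Bowtie 0.12.2 and mm10. No source used here names the gene models or the counting program. RPKM favours no length in principle, but libraries that differ in fragment size or GC bias differ along length and GC content. Here values were taken as log2(RPKM + 1), a pseudocount that understates the change of low genes, for genes averaging 1 RPKM or more, leaving out 121 short RNA rows. Limma 3.58.1 (R 4.3.3, trended and robust) was fitted with 5 group means over 6 libraries, two-sided, Benjamini-Hochberg adjusted. The shLuc replicates are not stated to be separate cultures, so p-values may measure technical spread. All values of the 18303 lines proved to be whole reads within 1e-05 reads plus a relative 5e-09, with a median of 712.75 reads a tested gene; intervals are 95% Poisson and cover counting error only. Trends were removed per library by loess. The fit was also run on simulated reads, with a dispersion taken from the shLuc pair and no length or GC trend. That run could not check whether the treated libraries vary as shLuc does. Named genes were the 4 targeted genes, the 15 largest called differences in each direction, up to 6 members of each of 35 gene lists and a fixed panel. The comparison and lists were chosen with earlier results of these data known. Alternatives are given in the closing section.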

Additional observations from a re-analysis of the deposited data

Results flagged for a closer look

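In 3 genes shPcyt2 and Etn-deprived were each called apart from shLuc by limma, on opposite sides of it. Gm5148 was above shLuc in shPcyt2 and below it in Etn-deprived, with a difference between them of 2.20 on the log2 scale. Uqcc2 stood in the same order, with a difference of 1.07. DQ267100, the small RNA with 0 reads in shPcyt2 and 11 in Etn-deprived, stood in the opposite order, at -3.22. Its calls rest on few reads: each shLuc library held 4, and limma took the spread from that pair. The upper 95% Poisson bound in shPcyt2 (2.68 RPKM) lay just under the shLuc values (2.79 and 2.86). DQ267100 was not called when shPebp1 was added to the spread.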

How the results depend on the processing

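The counts of genes called higher and lower in shPcyt2 were 588 and 213. They were 366 and 69 with median-of-ratios scaling, 224 and 58 with quantile normalization, 326 and 59 with short RNA rows kept, 376 and 367 with limma-voom, 120 and 67 with the length trend removed, and 14 and 3 with length and GC trends removed. Without a filter on the mean and with the spread from the 4 other libraries limma called 0 and 0, with 2861 and 1292 genes at an unadjusted p under 0.05. Leaving out either shLuc library, with the remaining libraries outside the comparison as 1 group, gave between 0 and 1 higher (Tmsb10, without the library labelled shLuc replicate 2) and 0 lower, with 1023 and 951 genes at an unadjusted p under 0.05. A pseudocount of 0.1 and a mean of at least 5 RPKM kept both counts within 1.5 times. Chosen after seeing the data, a mean of at least 200 reads gave 656 and 334, and a spread from the shLuc pair and shPebp1 gave 233 and 18. The 23 genes past the size rule became 61 with a pseudocount of 0.1, 13 with a mean of at least 5 RPKM, 68 with short RNA rows kept, 77 with limma-voom, 11 with a mean of at least 200 reads, 12 with length removed and 7 with length and GC removed. No named gene that was called changed direction under any of these. The direction could change only with another scaling, with limma-voom or with a trend removed. Settings that alter the spread, the pseudocount or the genes kept leave it fixed. The cause of the other changes was not tested. No paired analysis was possible because the groups compared hold 1 library each and share no second replicate number. Reads limit the rarer genes: 2112 of the genes tested have a mean under 200 reads, among them 77 of the 588 and 16 of the 213.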
